A study of Mus musculus with 6 samples.

Results

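Acute phase and iron-binding proteins are followed here through 10 genes, chosen by name from the 22556 genes of the tables: Lcn2, Saa1, Saa2, Saa3, Hp, Orm1, Lbp, Cp, Tfrc and Slc40a1. All 10 were listed in the tables, and 7 passed the filter on low values (a mean of at least 1 TPM over the 6 libraries, where TPM are reads scaled for gene length and library size). Saa1, Saa2 and Orm1 did not pass and were left untested, so their values are given without a test. RNA was sequenced from whole pancreases of wild-type C57BL/6 mice at postnatal week 8, with 2 saline mice, 2 mice with caerulein-induced acute pancreatitis (AP mice) and 2 AP mice that had received polyI:C before caerulein (polyI:C-pretreated AP mice, called pretreated mice below). Caerulein, spelled cerulein in the labels, is a peptide that overstimulates the acinar cells of the pancreas, and polyI:C is a synthetic double-stranded RNA that activates Toll-like receptor 3. No group received polyI:C without caerulein, so its effect on these genes outside pancreatitis was not analysed here.

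The acute phase response is the change in plasma proteins that follows infection or tissue injury. The liver is its main source, under the cytokines IL-6, IL-1 and TNF, but inflamed epithelia, fat and myeloid cells also make some of the proteins. Several of them withhold iron or haem from microbes. Lipocalin 2 (Lcn2) binds the siderophores with which bacteria take up iron, haptoglobin (Hp) binds free haemoglobin, and ceruloplasmin (Cp) oxidises iron so that it can be loaded onto transferrin. The transferrin receptor (Tfrc) brings iron into cells, and ferroportin (Slc40a1) is the exporter that releases it.

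Tfrc and Slc40a1 carry iron-responsive elements, hairpins in the messenger RNA that are bound by the iron-regulatory proteins when iron is scarce. Binding in the 3′ UTR is known to stabilise the Tfrc transcript, and binding in the 5′ UTR to block translation of Slc40a1 and of the ferritins Fth1 and Ftl1. A search of the GENCODE M21 transcripts for a CAGTGN loop on a stem of 5 base pairs, with a C directly before the stem, found 4 elements in the 3′ UTR of Tfrc and 1 in the 5′ UTR of each of Slc40a1, Fth1 and Ftl1. They are shown because the level of a transcript reports on the 2 classes of gene differently: a 5′ element acts on translation, which TPM does not measure. Each line below gives 30 bases of the GRCm38 transcript with the loop in capitals.
Tfrc, chr16:32631219-32631248, + strand: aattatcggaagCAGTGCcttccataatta
Tfrc, chr16:32631598-32631627, + strand: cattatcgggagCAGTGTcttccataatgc
Tfrc, chr16:32631663-32631692, + strand: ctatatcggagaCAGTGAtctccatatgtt
Tfrc, chr16:32631710-32631739, + strand: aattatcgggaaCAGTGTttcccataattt
Slc40a1, chr1:45925464-45925493, − strand: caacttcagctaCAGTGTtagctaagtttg
Ftl1, chr7:45459778-45459807, − strand: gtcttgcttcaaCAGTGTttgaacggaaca
Fth1, chr19:9982732-9982761, + strand: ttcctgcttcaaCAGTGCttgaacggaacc

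The steps between low TPM values gave an estimated 3297425 to 10851342 reads per library on the genes of the tables. The saline libraries had the fewest (at most 3975370, against at least 6933047 in the others). Reads on genes absent from the tables are not counted, so these totals are not the depth of sequencing. One read on a gene of median length was worth 0.0956 to 0.265 TPM, so low genes are measured least precisely in saline mice. Read numbers given below are rough estimates from these steps. The labels do not tie equal replicate numbers to a shared day or litter. Ductal epithelial markers rose in AP mice (7 of 10, beside 18.2% of all tested genes). Of 6 tested acinar markers 4 fell, beside 4.03% of all tested genes, with 6 of the 18 listed acinar markers in the tables. Prss1, Amy2a5 and Ctrc, which mark acinar cells, were found in all 6 libraries. In bulk tissue, fewer cells of a type and less RNA per cell cannot be told apart. The second pretreated library stood apart from the rest. It held transcripts of intestinal enterocytes at a summed 4686 TPM over 15 markers, against 17.7 to 24.4 TPM in the other 5 libraries. Fabp1 reached 1430 TPM in it and Fabp2 1083 TPM, and the intestinal factors Cdx1 and Cdx2 were above 0 in this library only. The sum of 11 hepatocyte markers was also highest there, at 1793 TPM against 45.4 to 129 TPM in the others, of which Fabp1 and Apoa1 (269 TPM), counted on both lists, made up most. Cyp3a11 (36.8 TPM) and Apoc3 (4.32 TPM) on the hepatocyte list were highest in that library too, whereas Alb (0.562 TPM), Cyp2e1 (2.75 TPM) and Serpina1a (0.0979 TPM) were at their lowest. Several results that rest on it are also given without it.

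In AP mice 4 of the 7 tested genes rose against saline mice and none fell: Lcn2, Hp, Lbp and Cp. Lcn2 and Hp showed the largest fitted increases, Lbp and Cp smaller and more even ones. Slc40a1 was higher in both AP libraries than in both saline libraries without passing the threshold, Tfrc was lower, and Saa3 showed no difference beyond the spread between replicates. Calls of raised or reduced needed an adjusted p (Benjamini-Hochberg) in limma no higher than 0.05 and at least a 2-fold change. By that rule 18.2% of all 16814 tested genes were raised and 4.03% reduced. Over the 7 genes the median was 1.48 on the log2 scale, beside 0.45 for all tested genes.

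**Figure D1:**
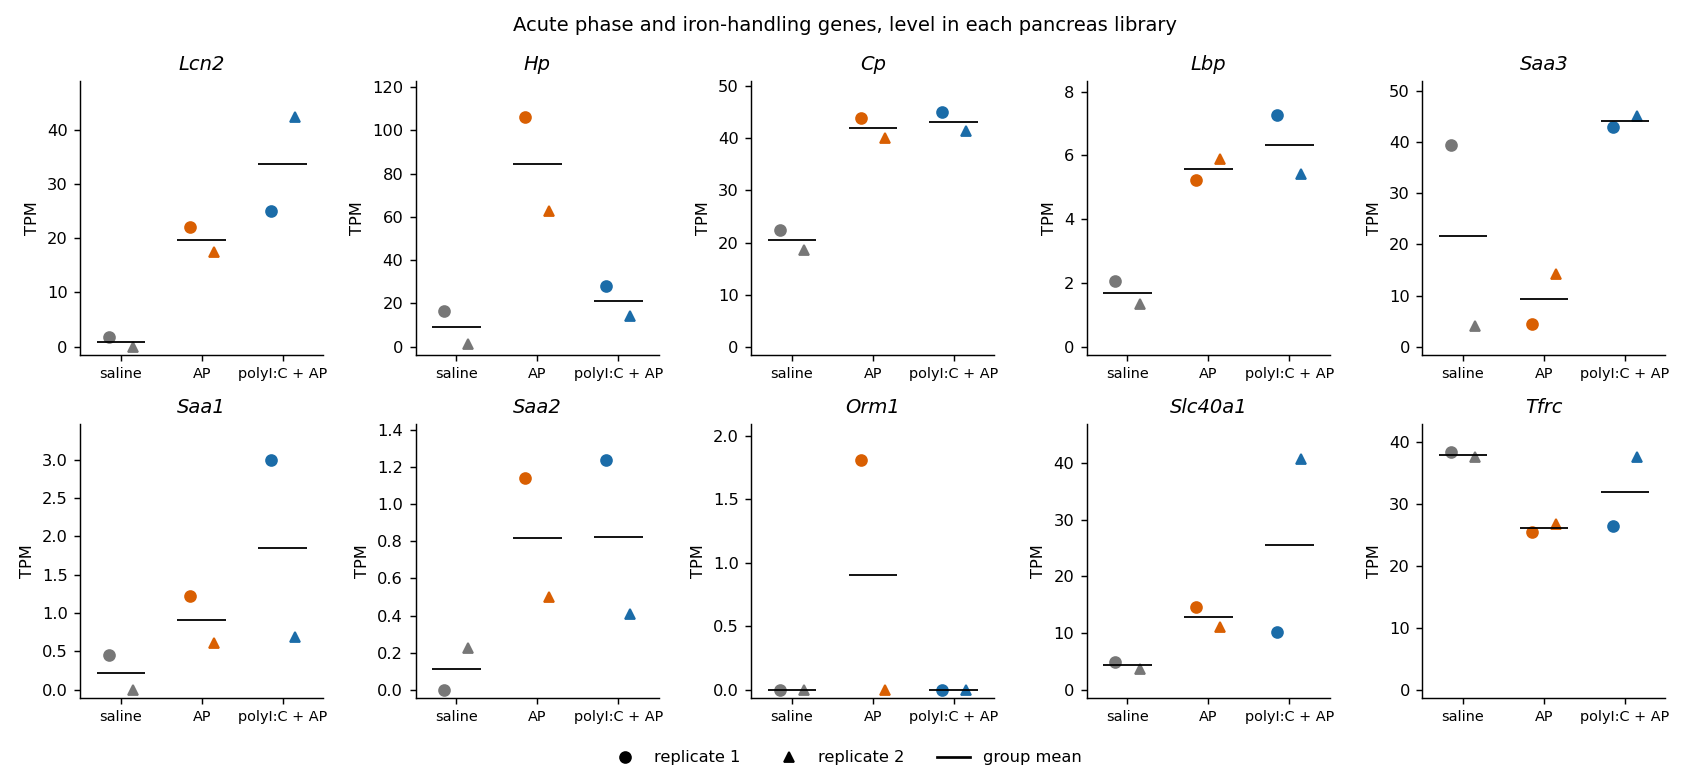
Level of each of the 10 genes in TPM (linear axes from 0) in the 2 saline, 2 AP and 2 pretreated libraries. Circles are replicate 1, triangles replicate 2 and lines the group means. Lcn2, Hp, Cp, Lbp and Slc40a1 are higher in both AP libraries than in both saline libraries, while the saline values of Saa3, 39.45 and 3.95 TPM, lie further apart than its AP values.

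Lcn2 (ENSMUSG00000026822, chr2:32384633-32388252 in GRCm38, − strand) was read at 1.84 and 0 TPM in saline mice. It reached 22.01 and 17.4 TPM in AP mice, and 25.0 and 42.4 TPM in pretreated mice. All 4 caerulein-treated libraries stood above both saline libraries. The log2 fold change on log2(TPM + 0.5) was 4.21 ± 0.67 (SE, n = 2 per group, limma adjusted p = 0.0031) in AP mice. The saline value of 1.84 TPM rests on about 7.05 reads and the other is listed at 0, so the size depends on the pseudocount and the setting, from 3.1 to 5.48 over the 14 other settings tried, and the call was lost without AP replicate 1 (adjusted p = 0.067) or AP replicate 2 (0.058). In pretreated mice the log2 fold change against saline was 4.94 ± 0.67 (limma adjusted p = 0.0018). It was 4.56 (adjusted p = 0.042) without the library that held intestinal transcripts.

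Hp (ENSMUSG00000031722, chr8:109575128-109579172, − strand) was at 16.6 and 1.28 TPM in saline mice, 106 and 62.6 TPM in AP mice, and 28.1 and 14.2 TPM in pretreated mice. The 2 AP libraries were the highest of the 6, and the saline and pretreated groups overlapped. Hp rose by 3.90 ± 0.97 on the log2 scale in AP mice (limma adjusted p = 0.018), with a 95% interval from 1.58 to 6.21. The call was lost when only the 4 libraries compared were fitted (adjusted p = 0.055), without either AP library (0.18 and 0.12) and without either pretreated library (0.089 and 0.071), while the estimate stayed at or above 3.52 in those fits. It moved further with the saline libraries, to 5.53 without saline replicate 1 and 2.26 without saline replicate 2, with the call kept. Against saline, the log2 fold change in pretreated mice was 1.89 ± 0.97 (adjusted p = 0.17), and it was 3.53 (0.012) without saline replicate 1 and 0.26 (0.74) without saline replicate 2.

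Replicate 1 had more Hp than replicate 2 in each of the 3 groups, and the same held for the sum of 12 adipocyte markers. The order was not particular to fat, since Cp and the neutrophil sum given below showed it too. The adipocyte sum was 450 and 232 TPM in saline mice, 391 and 191 TPM in AP mice, and 245 and 147 TPM in pretreated mice. Cfd, the adipsin gene of fat cells, was at 213 and 73.9 TPM, 217 and 81.8 TPM, and 100 and 38.4 TPM in the same order. Within the adipocyte list Pparg was higher in replicate 2 in every group, and Adipoq, Cidec and Pck1 were so in pretreated mice. Between groups the adipocyte markers did not follow Hp: none of the 11 tested was raised in AP mice, and 1 was reduced. Of all tested genes 18.2% were raised and 4.03% reduced. Of the 12 neutrophil markers, 9 were in the tables, with a sum of 17.9 and 5.80 TPM in saline mice, 72.8 and 64.4 TPM in AP mice, and 45.4 and 22.1 TPM in pretreated mice. The sum of 12 monocyte and macrophage markers was 765 and 490 TPM, 2649 and 3091 TPM, and 624 and 480.5 TPM. Both myeloid sums were thus highest in the AP group, as Hp was. In the neutrophil sum Retnlg was the largest part in AP mice (35.41 and 28.0 TPM, against 7.53 and 1.496 TPM in pretreated mice). By group mean, S100a9, Retnlg, Cxcr2, Csf3r, Mmp8 and Mmp9 were highest in AP mice. S100a8, Camp and Elane were highest in pretreated mice. Their means in AP and pretreated mice were 7.793 and 8.898 TPM, 1.594 and 1.658 TPM, and 0 and 0.8666 TPM. The part of fat or myeloid cells in the Hp values was not tested.

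**Figure D2:**
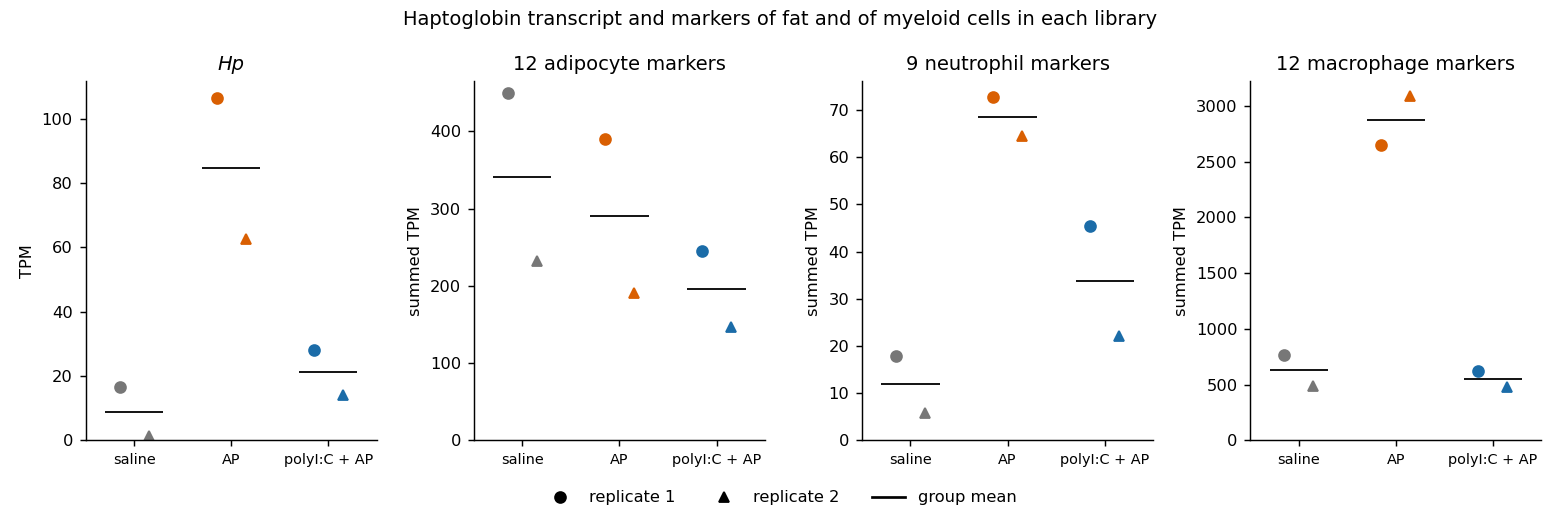
Hp (TPM) and the summed TPM of adipocyte, neutrophil and macrophage markers in each library, on linear axes from 0. Circles are replicate 1, triangles replicate 2 and lines the group means. Replicate 1 exceeds replicate 2 in every group for Hp and for the adipocyte and neutrophil sums. The AP group is highest for Hp (106 and 62.6 TPM) and for both myeloid sums.

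Lbp (ENSMUSG00000016024, chr2:158306493-158332852, + strand) encodes the plasma protein that carries bacterial lipopolysaccharide to CD14. It was at 2.05 and 1.33 TPM in saline mice, 5.24 and 5.89 TPM in AP mice, and 7.27 and 5.40 TPM in pretreated mice. No caerulein-treated library overlapped with a saline one. The log2 fold change was 1.49 ± 0.29 in AP mice (limma adjusted p = 0.0067) and 1.65 ± 0.29 in pretreated mice (adjusted p = 0.0048). The first call was lost without AP replicate 1 (0.065) or AP replicate 2 (0.087), and the second without the first pretreated library (0.061).

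Cp (ENSMUSG00000003617, chr3:19957054-20009145, + strand) was at 22.4 and 18.6 TPM in saline mice, 43.8 and 40.0 TPM in AP mice, and 45.1 and 41.4 TPM in pretreated mice. Its replicates were close, within 1.21-fold in every group, and its rise of 1.02 ± 0.12 on the log2 scale (limma adjusted p = 0.0011) was just past the 2-fold limit. Median-of-ratios scaling between libraries lowered the median of all tested genes from 0.45 to 0.057 and the rise of Cp to 0.60 (adjusted p at most 0.028 over the settings tried), so the direction stayed and the 2-fold limit was missed. The limit was missed also with voom (0.78), without saline replicate 2 (0.89) and without AP replicate 1 (0.95). In pretreated mice Cp rose by 1.06 ± 0.12 (adjusted p = 0.0010), with 0.62 after median-of-ratios scaling, 0.79 with voom and 0.93 without saline replicate 2. Exons of Cp overlap exons of Hps3, and whether reads were counted by strand is not given in the sources used here.

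Slc40a1 (ENSMUSG00000025993, chr1:45908068-45926523, − strand) was at 4.87 and 3.72 TPM in saline mice, 14.6 and 11.1 TPM in AP mice, and 10.3 and 40.7 TPM in pretreated mice. The value of 40.7 TPM came from the library with intestinal transcripts, and the absorptive cells of the duodenum are a known site of this exporter. In the fit of all 6 libraries the rise in AP mice was 1.48 ± 0.56 (limma adjusted p = 0.078). Without that library the same estimate of 1.48 had an adjusted p of 0.012, and it was 0.0084 when only the saline and AP libraries were fitted. Against saline, pretreated mice were higher by 2.15 ± 0.56 (adjusted p = 0.023) with all libraries, and by 1.18 (adjusted p = 0.043) on their other library alone, which is there assumed to vary like the other groups. The call for pretreated mice was kept in 5 of the 14 other settings. It was lost without either saline library (0.099 and 0.15), without either AP library (0.098 and 0.095), after median-of-ratios scaling (0.069) and with voom (0.16). In levels, Slc40a1 was above saline in 4 of 4 caerulein-treated libraries.

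Tfrc (ENSMUSG00000022797, chr16:32608920-32632794, + strand) was at 38.4 and 37.6 TPM in saline mice, 25.5 and 26.8 TPM in AP mice, and 26.5 and 37.65 TPM in pretreated mice. Both AP libraries lay below both saline libraries. The log2 fold change was -0.53 ± 0.17 (limma adjusted p = 0.045), under the 2-fold limit, and -0.96 (0.0080) after median-of-ratios scaling. Leaving out either saline or either AP library raised the adjusted p to between 0.14 and 0.22. In pretreated mice it was -0.26 ± 0.17 against saline (adjusted p = 0.27) with both libraries and -0.51 (adjusted p = 0.033) without the library that held intestinal transcripts, whose Tfrc value equalled the saline level, and -0.013 without the other pretreated library. The ratio of Slc40a1 to Tfrc, in TPM over TPM, was 0.127 and 0.0988 in saline mice, 0.574 and 0.414 in AP mice, and 0.388 and 1.08 in pretreated mice, and it was higher in every caerulein-treated library than in either saline library.

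**Figure D3:**
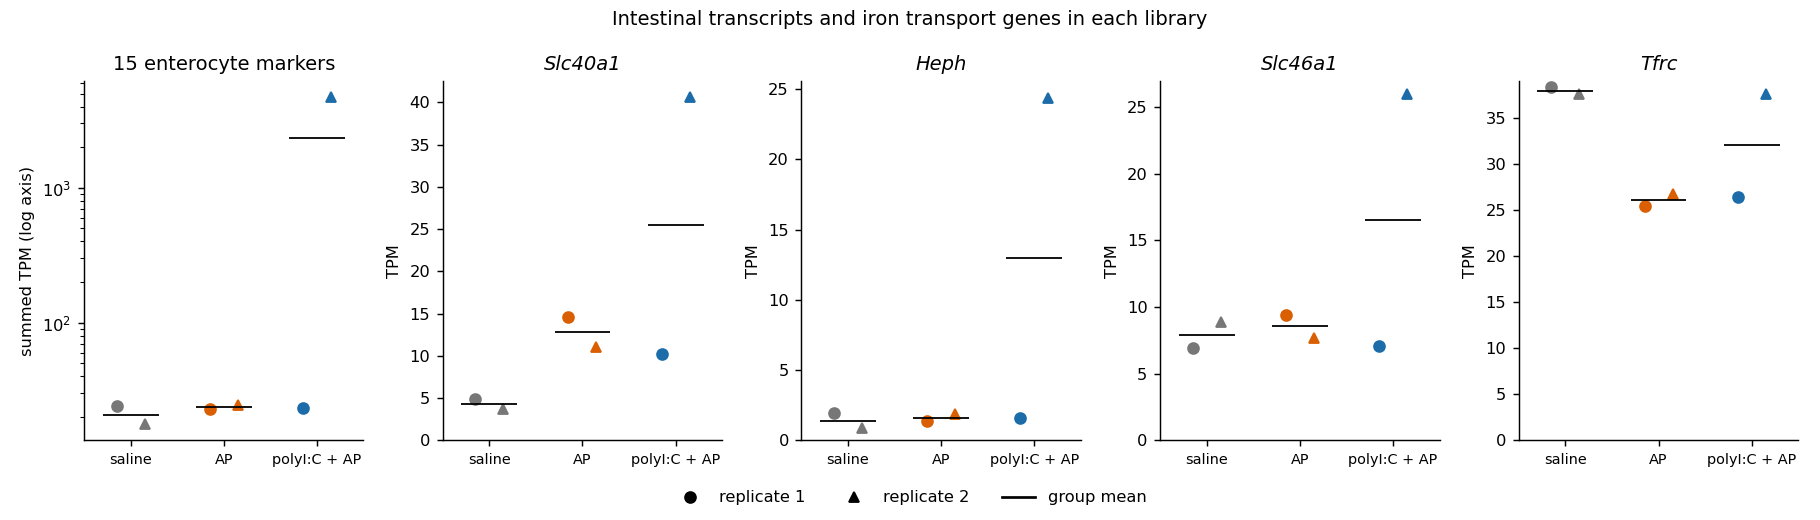
Summed TPM of 15 enterocyte markers (log axis) and TPM of Slc40a1, Heph, Slc46a1 and Tfrc (linear axes from 0) in each library. Circles are replicate 1, triangles replicate 2 and lines the group means. The second pretreated library has 4686 TPM of enterocyte markers and the highest Slc40a1 (40.7 TPM), Heph (24.4 TPM) and Slc46a1 (26.0 TPM).

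The serum amyloid A genes lie side by side on chromosome 7, Saa3 (ENSMUSG00000040026, chr7:46711998-46715700, − strand), Saa1 (ENSMUSG00000074115, chr7:46740497-46742980, − strand) and Saa2 (ENSMUSG00000057465, chr7:46751790-46754313, + strand). Saa1 and Saa2 encode the main acute phase forms of the liver, and Saa3 is the form made by macrophages, fat and epithelia. The coding sequences of Saa1 and Saa2, 366 bases each, were 95.1% identical with 18 differing bases, and Saa1 and Saa3 were 73.0% identical. The longest identical run between Saa1 and Saa2 was 73 bases, and no stretch of 100 bases was shared with another gene. Bases 91 to 150 of the coding sequences, the window of 60 in which Saa1 and Saa2 differ most, show how reads can tell the copies apart, with differences from Saa1 in capitals.
Saa1: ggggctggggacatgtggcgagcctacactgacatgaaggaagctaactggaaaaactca
Saa2: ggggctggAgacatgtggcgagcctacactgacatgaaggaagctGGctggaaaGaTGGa
Saa3: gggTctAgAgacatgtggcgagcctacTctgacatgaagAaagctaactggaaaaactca

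Saa3 was at 39.45 and 3.95 TPM in saline mice, 4.39 and 14.1 TPM in AP mice, and 43.0 and 45.2 TPM in pretreated mice. The saline libraries differed from each other 9.98-fold and the AP libraries 3.22-fold, while the 2 pretreated libraries were close to each other and above the other 4. Saa3 was -0.66 ± 0.98 on the log2 scale in AP against saline mice (limma adjusted p = 0.64), and this turned to 0.93 without saline replicate 1 and to 0.13 without AP replicate 1. In pretreated against saline mice it was 1.74 ± 0.98 (adjusted p = 0.21), with 3.32 (adjusted p = 0.025) without saline replicate 1 and 0.16 (0.88) without saline replicate 2. Its values against saline thus depended on which saline library was used.

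Saa1 and Saa2 stayed near the detection limit. Saa1 was at 0.448 and 0 TPM in saline mice, 1.23 and 0.606 TPM in AP mice, and 2.997 and 0.695 TPM in pretreated mice, or about 19.5 reads at most in those libraries. Saa2 was at 0 and 0.228 TPM, 1.14 and 0.50 TPM, and 1.24 and 0.41 TPM in the same order. Both were higher in each of the 4 caerulein-treated libraries than in either saline library. Whether reads of the common stretches were dropped by the authors' counting is not known. Orm1 (ENSMUSG00000039196, chr4:63344560-63348163, + strand), the gene of alpha-1-acid glycoprotein, was at 1.81 TPM in AP replicate 1, about 3 reads, and listed at 0 in the other 5 libraries. It shares 6.95% of its 100-base stretches with Orm2.

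PolyI:C pretreatment changed none of the 7 tested genes past the threshold relative to AP mice. By the same rule 0.44% of all tested genes were raised and 0.404% reduced. With limma's unadjusted p, 1 of the 7 was under 0.05, beside 13.9% of all tested genes, and a fit of estimated reads with voom called 1 reduced. The former was Saa3, at a log2 fold change of 2.40 ± 0.98 (95% interval from 0.052 to 4.74, unadjusted p = 0.046, limma adjusted p = 0.35). The latter was Hp, which was lower in both pretreated libraries than in both AP libraries, by -2.00 ± 0.97 (95% interval from -4.32 to 0.31, limma adjusted p = 0.43), and in voom by -2.07 (adjusted p = 0.047). Cp differed by 0.044 on the log2 scale with a 95% interval from -0.25 to 0.34, the narrowest of the 7. The interval was -0.53 to 0.85 for Lbp, -0.14 to 0.67 for Tfrc and -0.88 to 2.33 for Lcn2. For Slc40a1 the estimate of 0.67 turned to -0.30 without the library with intestinal transcripts. The other estimates without it were 0.017 for Tfrc, 0.35 for Lcn2, -1.52 for Hp, 2.36 for Saa3, 0.36 for Lbp and 0.10 for Cp.

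Relative to saline mice, pretreated mice had Lcn2, Lbp, Cp and Slc40a1 raised, 4 of 7 with none reduced. The background was 16.9% of tested genes raised and 2.97% reduced. The same 4 genes were called without the library that held intestinal transcripts, and 2 of the 4, Lcn2 and Lbp, after median-of-ratios scaling. The comparisons share control samples, and their values are therefore given side by side.

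**Figure D4:**
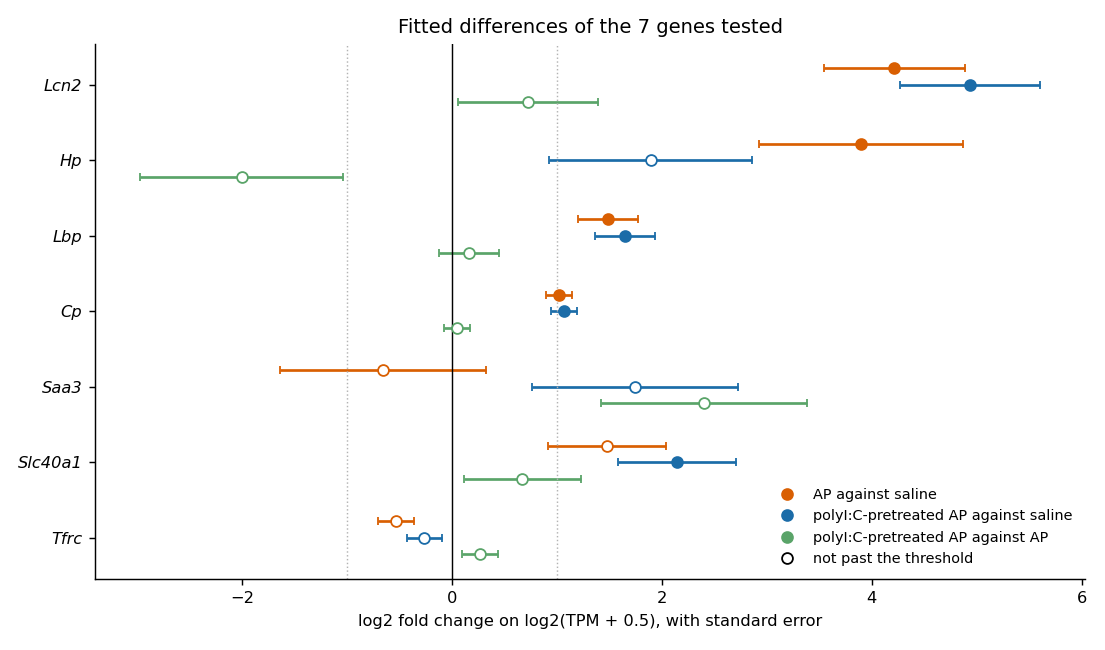
Log2 fold change on log2(TPM + 0.5) of the 7 tested genes in the 3 comparisons, with the standard error of limma as bars (n = 2 per group). Filled points passed the threshold, open points did not, and dotted lines mark a 2-fold change. Lcn2, Lbp and Cp are filled in both comparisons with saline, and no gene is filled for the pretreated against the AP group.

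Over the 6 libraries, as a description of points that share the group effect and few reads, Lbp and Cp had the most similar profiles among the tested genes, with a Pearson correlation of log2(TPM + 0.5) of 0.986. Lcn2 followed with 0.973 to Cp and 0.959 to Lbp. Tfrc ran opposite to Hp (-0.775), Lbp (-0.728) and Cp (-0.728). Saa3 correlated with none of the other 6 above 0.423. Among 8495 protein-coding genes averaging 10 TPM or more, the profile most like that of Lcn2 was Spats2 (0.998), that of Hp was Cgrrf1 (0.991), that of Lbp was Elf1 (0.9995), that of Cp was Sdr39u1 (0.9988) and that of Slc40a1 was Gdpd1 (0.993). Such likeness was common for Lbp and Cp, with 1434 and 1766 genes above 0.95, and rare for Hp and Slc40a1, with 60 and 35.

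Of 24 other genes of acute phase plasma proteins, 15 were tested. In AP mice 4 were raised (26.7%, beside 18.2% of all tested genes) and 2 reduced. The median log2 fold change was 0.68 beside 0.45 for all tested genes. The raised genes were Il1rn, the antagonist of the IL-1 receptor (4.001 ± 0.32), Cd14 (3.85 ± 0.10), Reg3g, a secreted antibacterial lectin (2.81 ± 0.82), and Serpina3n, a serine protease inhibitor (2.70 ± 0.23), all as log2 fold changes. Il1rn rested on about 3.42 and 0 reads in saline mice, so its size depends on the pseudocount. Cd14 went from 15.7 and 13.9 TPM in saline mice to 218 and 221.5 TPM in AP mice and 216 and 209 TPM in pretreated mice. Itih4 (-2.30 ± 0.37) and Ttr (-1.25 ± 0.24), a carrier of thyroid hormone that is known to fall in the liver during the acute phase, were reduced. Levels differed widely within the list. The complement gene C3 was at 146 to 344 TPM over the 6 libraries and Ambp at 18.6 to 48.4 TPM, while the fibrinogen chains Fga, Fgb and Fgg were at no more than 0.931 TPM and haemopexin (Hpx) at no more than 1.48 TPM in any library. The call for Reg3g was lost without the library with intestinal transcripts (adjusted p = 0.11, with the same fold change, since that library enters this comparison through the shared estimate of spread) and after median-of-ratios scaling (0.069), which left 3 raised in each case. In pretreated against saline mice 5 of the 15 were raised (33.3%, beside 16.9% of all tested genes), the fifth being Crp (1.20 ± 0.34). Another 2 were reduced, beside 2.97% of all tested genes. The median was -0.11 beside 0.485 for all tested genes, and 0.916 without the library with intestinal transcripts. None of the 15 passed the threshold between pretreated and AP mice, where 1 had an unadjusted p in limma under 0.05, beside the same 13.9%.

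Among genes of iron storage, transport and haem handling, 22 of 26 were tested. In AP mice 7 were raised (31.8%, beside 18.2% of all tested genes) and 0 reduced. The median was 0.41 beside 0.45 for all tested genes. Hmox1, the inducible haem oxygenase that frees iron from haem, rose from 6.43 and 5.03 TPM to 68.9 and 69.8 TPM (log2 fold change 3.50 ± 0.17, limma adjusted p = 4.9e-05). It was at 39.1 and 38.1 TPM in pretreated mice, below both AP libraries (-0.84 ± 0.17, adjusted p = 0.076). Hmox2, Blvra and Blvrb, whose products are the second haem oxygenase and the biliverdin reductases of the same pathway, were raised by 1.22, 1.52 and 1.14 on the log2 scale. The other raised genes were Steap1 (3.005), Slc11a1, a metal transporter of phagosomes (2.11), and Ftl1. Steap1 was listed at 0 in both saline libraries and rested on about 11.6 reads in each AP library, so its size depends on the pseudocount. After median-of-ratios scaling 5 of the 22 were raised, with Hmox2 at 0.80 and Blvrb at 0.74. In pretreated against saline mice 7 were raised (31.8%, beside 16.9% of all tested genes) and 0 reduced. Slc11a2, the importer of ferrous iron (1.23 ± 0.13), stood in place of Slc11a1. That count was 6 without the library with intestinal transcripts and 3 after median-of-ratios scaling. Between pretreated and AP mice 0 of the 22 passed the threshold, with 9 at an unadjusted p in limma under 0.05 beside 13.9% of all tested genes, and voom called 1 reduced.

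The 2 ferritin chains parted. Ftl1, the light chain, was at 110 and 77.5 TPM in saline mice, 410.5 and 435 TPM in AP mice, and 384 and 311 TPM in pretreated mice (2.19 ± 0.18 in AP against saline, limma adjusted p = 0.00029). Fth1, the heavy chain, was at 1428 and 958 TPM, 1009 and 1053 TPM, and 1433 and 1613 TPM, with overlapping saline and AP values (-0.18 ± 0.18, adjusted p = 0.48). The ratio of Ftl1 to Fth1 was 0.0772 and 0.0809 in saline mice, 0.407 and 0.413 in AP mice, and 0.268 and 0.193 in pretreated mice, with no overlap between the 3 groups. Both transcripts carry 1 iron-responsive element in the 5′ UTR, as printed above.

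**Figure D5:**
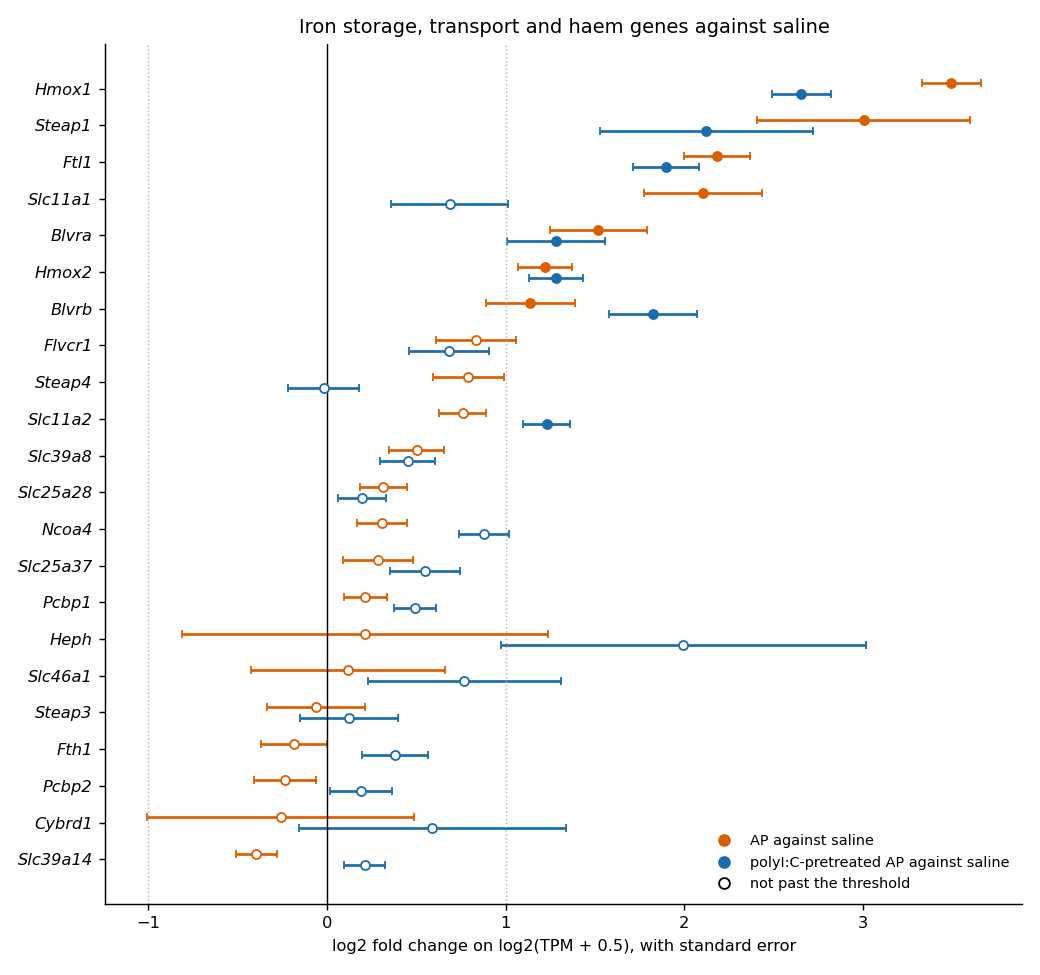
Log2 fold change against saline of the 22 tested genes of iron storage, transport and haem handling, with the standard error of limma as bars (n = 2 per group), for AP and pretreated mice. Filled points passed the threshold and dotted lines mark a 2-fold change. Hmox1 is highest in both, and the wide bars of Heph and Slc46a1 come with values of 24.4 and 26.0 TPM in the library with intestinal transcripts.

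Heph, the iron oxidase that works with ferroportin in the gut, was at 0.849 to 1.95 TPM in 5 libraries and at 24.4 TPM in the library with intestinal transcripts. Slc46a1, a transporter of folate and haem, and Cybrd1, an iron reductase of the gut surface, were also highest there, at 26.0 and 5.40 TPM. Without that library the log2 difference of Heph between pretreated and AP mice went from 1.78 to 0.0026. The part of intestinal tissue in the Slc40a1, Tfrc and Lcn2 values of that library was not tested. Transferrin (Trf) and lactoferrin (Ltf), the carriers of iron, were at no more than 1.07 TPM in any library.

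For the control of iron genes, 15 of 18 were tested. In AP mice 2 were raised (13.3%, beside 18.2% of all tested genes) and 1 reduced. The median was 0.45, the same as for all tested genes. Hfe, which takes part in iron sensing with the transferrin receptors, rose by 1.65 ± 0.23 and was raised also in pretreated mice (2.15 ± 0.23), and Smad1 rose by 1.44 ± 0.12. In pretreated against saline mice 2 of the 15 were raised (13.3%, beside 16.9% of all tested genes) and 1 reduced. Hamp2, a relative of the hepcidin gene, went from 15.7 and 18.3 TPM to 2.99 and 0 TPM (-3.72 ± 0.91, limma adjusted p = 0.017), a call lost, at the same fold change, without the library with intestinal transcripts (0.066). The Hamp2 values rested on about 13.4 and 12.6 reads in saline mice and 3.72 and 0 reads in AP mice. Hepcidin itself (Hamp) rested on about 3 reads at most in any library. The iron-regulatory proteins Aco1 and Ireb2 differed by 0.45 and 0.37, both under the 2-fold limit.

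For 12 receptors of these proteins, all tested, the median log2 fold change in AP mice was 0.98, beside 0.45 for all tested genes. Of the 12, 6 were raised, beside 18.2% of all tested genes, and 0 reduced. They were Cd14, Tlr2 (2.86), Fpr1 (2.71), Ly96 (1.42), Tlr4 (1.03) and Lrp1 (1.02), and after median-of-ratios scaling 3 of them were raised. Fpr1 was listed at 0 in both saline libraries and rested on about 5 and 15 reads in AP mice, so its size depends on the pseudocount. With voom 2 of the 12 were raised and 1 reduced, and the call for Lrp1 was lost, at the same fold change, without the library with intestinal transcripts (adjusted p = 0.12). In pretreated against saline mice 3 were raised (25.0%, beside 16.9% of all tested genes), Cd14, Tlr2 (2.11) and Ly96 (1.25). Slc22a17, a receptor of lipocalin 2, was at 23.3 and 19.5 TPM in saline mice and 15.1 and 10.8 TPM in AP mice (-0.71 ± 0.21, adjusted p = 0.036), under the 2-fold limit, and was reduced by 1.13 on the log2 scale after that scaling. Cd163, the macrophage receptor for haptoglobin bound to haemoglobin, was the 1 receptor reduced in pretreated against AP mice, beside 0.404% of all tested genes. It was at 16.0 and 11.1 TPM in saline mice, 19.7 and 21.4 TPM in AP mice, and 8.64 and 5.99 TPM in pretreated mice (-1.45 ± 0.24, limma adjusted p = 0.049). Of 12 monocyte and macrophage markers 6, Cd163 among them, were reduced in that comparison, beside the same 0.404%. The median over the 12 was -1.63, beside 0.039 for all tested genes. Without the library with intestinal transcripts 0 of the 12 and 0 of all tested genes passed the threshold, with a median over the 12 of -1.56, and Cd163 was at -1.20 (adjusted p = 0.33).

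Of 23 cytokines, receptors and factors known to induce acute phase genes, 20 were tested. In AP mice 14 were raised (70.0%, beside 18.2% of all tested genes) and 2 reduced, with a median of 1.31 beside 0.45. After median-of-ratios scaling 8 were raised. In pretreated against saline mice 9 were raised (45.0%, beside 16.9% of all tested genes) and 0 reduced. Nfkb2 (3.23 ± 0.10), Lif (3.09 ± 0.37) and Tnf (3.04 ± 0.60) had the largest log2 fold changes. In saline mice Tnf rested on about 1.08 and 0 reads and Lif on 8.47 and 1.88, so their sizes depend on the pseudocount. Stat3 rose by 1.11, Socs3, its feedback inhibitor, by 2.40, and Cebpb by 1.25. Il6 itself was at no more than 0.371 TPM in any library and was not tested, and Il6ra, its receptor, was reduced (-1.10 ± 0.19). Between pretreated and AP mice 0 of the 20 passed both parts of the threshold, with 6 at an unadjusted p in limma under 0.05 beside 13.9% of all tested genes. Nfkbia, the inhibitor of NF-kB, was the closest, at 308 and 330 TPM in AP mice and 157 and 179 TPM in pretreated mice (-0.93 ± 0.12, adjusted p = 0.025, under the 2-fold limit).

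Promoter windows of 300 bases (250 before and 50 after the start, RefSeq, GRCm38.p6) were at hand for Lcn2, Saa1, Saa2, Saa3, Cp and Tfrc. They were searched on both strands for the C/EBP motif TTNNGNAA, the STAT motif TTCNNNGAA, the interferon-stimulated response element, the hypoxia motif ACGTG and the NF-kB motif, which are held by 40.7%, 8.3%, 3.44%, 19.6% and 4.51% of all 32851 windows. The C/EBP motif matched in the windows of Lcn2, Cp, Saa1, Saa2 and Saa3 and in neither window of Tfrc, which held the hypoxia motif. Saa3 had 4 C/EBP matches, at 216, 191, 129 and 99 bases before the start, and 1 match to the interferon-stimulated response element at 125 bases before it, which overlaps a C/EBP match. The 250 bases before the start of Saa3, which was higher in both pretreated libraries than in the other 4, and of Lcn2, the gene with the largest fold change, are shown with these matches in capitals. A match of letters is a description and does not show binding.
Saa3, chr7:46715677-46715926, − strand: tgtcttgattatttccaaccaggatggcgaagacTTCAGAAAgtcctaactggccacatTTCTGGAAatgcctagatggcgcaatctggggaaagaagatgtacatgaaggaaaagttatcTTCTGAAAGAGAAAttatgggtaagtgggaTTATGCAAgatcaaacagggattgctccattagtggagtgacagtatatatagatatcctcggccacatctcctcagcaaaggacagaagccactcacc
Lcn2, chr2:32387740-32387989, − strand: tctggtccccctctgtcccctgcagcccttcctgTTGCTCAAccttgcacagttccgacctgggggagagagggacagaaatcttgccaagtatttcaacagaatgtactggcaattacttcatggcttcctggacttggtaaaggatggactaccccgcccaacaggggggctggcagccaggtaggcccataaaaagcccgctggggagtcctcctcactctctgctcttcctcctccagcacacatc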

How the data were processed

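Total RNA of 6 wild-type pancreases, 2 mice per group, was analysed, and the group of each library was taken from its label. Reads were trimmed (Trimmomatic), aligned to mm10 (STAR) and counted per gene (HTSeq) by the authors. The deposited values are TPM, and how counts became TPM is not given in the sources used here. A stranded mRNA kit is named in the paper, and in the labels a kit for ribosomal RNA removal as well. The authors tested read counts with DESeq2, which does not apply to TPM. TPM sum to the same total in each library, so reads on the listed genes were estimated from the spacing of low values. Of these values 50.5% to 61.9% lay within 0.1 of a whole multiple, too few to recover reads. Read numbers in the text and the voom fit therefore rest on rough estimates.

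Values were fitted as log2(TPM + 0.5) with limma 3.58.1 (R 4.3.3) over all 6 libraries, for the 16814 genes that averaged 1 TPM or more, with a prior variance that follows log2(mean TPM × exon length + 1). P-values were adjusted by Benjamini-Hochberg over these genes, with a threshold of 0.05 and 2-fold. With 2 against 2, an exact two-sided permutation test cannot go below p = 0.333 and was not used. The fit was tested on 1 set of simulated reads at the estimated depths. It recovered most of the changed genes there but made more false calls than an adjusted p of 0.05 allows. Far fewer genes were changed in the simulation than were called in these data, so the share of false calls here can differ and is not known. Calls near the threshold should be read as less certain than that p states. Symbols and positions came from GENCODE M21 for 22490 of 22556 identifiers. The members, lists and tests were chosen with earlier results of these data known, and the enterocyte list after its values were seen. All 10 members were named, and from other lists at most the 3 largest changes past the threshold per comparison and known partners of members. Genes named beyond that rule, among them raised or reduced genes of short counts and the marker genes, were chosen after their values were seen. For likeness, the gene with the highest correlation was given. The labels do not say that replicates came from separate cages or days, so p-values measure the spread between these mice. Alternatives were 2 other pseudocounts, no filter, median-of-ratios scaling, another prior, only the groups compared, the replicate number as a block, voom and leaving out each library.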

Additional observations from a re-analysis of the deposited data

How the results depend on the processing

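The limits are n = 2 per group and fewer estimated reads on the listed genes in the saline libraries. Of 4 members raised in AP against saline mice, 3 were raised with median-of-ratios scaling and with voom, where Cp fell under 2-fold, and leaving out 1 library gave 0 (without AP replicate 1) to 4, with 1 (Cp) without AP replicate 2. For pretreated against AP mice the count was 0, and 1 (Hp, reduced) with voom on estimated reads. For pretreated against saline mice the count of 4 became 2 with median-of-ratios scaling and 2 with voom, and 2 (without saline replicate 2) to 5 (without saline replicate 1) leaving out a library. With the replicate block the counts were 4, 0 and 5, the fifth being Hp (adjusted p = 0.049). The block also moved the limma adjusted p of Hp in AP against saline mice from 0.018 to 0.0038. Over all tested genes, deviations of same-numbered libraries correlated at 0.0075, 0.0351 and -0.00385. Such correlations cannot show whether same-numbered mice shared a day or litter. Differences that changed sign did so when 1 library was left out. Saa3 in AP against saline ranged from -2.24 to 0.93. Between pretreated and AP mice, Lbp ranged from -0.037 to 0.36, Cp from -0.021 to 0.11 and Slc40a1 from -0.30 to 1.64. The cause was not tested. In all, leaving out a library kept direction and call in 100 of 126 member differences, and the other settings in 155 of 168. Most of these had no call to lose, and some left out a library of neither group compared, so the shares say little about how firm the calls are. A call was lost in 16 differences when a library was left out, and in 10 in the other settings.

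Counts over all genes moved most between pretreated and AP mice: 74 raised and 68 reduced, against 14 and 14 with the other prior, 44 and 46 without a filter, 114 and 217 with voom, and 0 to 80 in all when a library was left out. Against saline, the 3053 genes raised and 677 reduced in AP mice became 1566 and 1221 with median-of-ratios scaling and 1799 and 976 with voom. For pretreated against saline mice, 2838 and 500 became 1325 and 982, and 1505 and 814.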
